A study of Mus musculus with 19 samples.

Results

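Podocytes wrap the capillaries of the glomerulus with interdigitating foot processes, and the gaps between these are closed by the slit diaphragm, a sheet of adhesion proteins that holds back plasma protein. Loss of slit diaphragm, cytoskeletal or nuclear proteins of the podocyte causes proteinuric disease in humans and mice. The genes described here are 9 genes chosen by symbol from the gene tables of obstructed mouse kidneys: Nphs1, Kirrel and Plce1 (slit diaphragm and its signalling), Podxl, Ptpro, Synpo and Clic5 (cell surface and foot process), and Wt1 and Cdkn1c (nucleus). Each of the 9 was found once among 54532 genes, and each passed the filter on low counts in every comparison. Measured values did not enter the rule that chose them, though it was set with earlier results of these data known.

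The samples were whole left kidneys of 19 male mice of 8 to 9 weeks on a C57BL/6J background, all collected on day 12 after unilateral ureteral obstruction (UUO), in which the ureter of 1 kidney is tied off. The 4 groups were WT mice given PBS (n = 5), WT mice given rCD5L (n = 5), CD5L KO mice given PBS (n = 4) and CD5L KO mice given rCD5L (n = 5), with rCD5L, the recombinant form of a secreted macrophage protein made in CHO-S cells, injected into the peritoneum daily at 0.5 mg per mouse. All 4 groups therefore carried the obstruction, the PBS mice received buffer rather than a control protein, and no unobstructed kidney was compared here. The study set out to examine what CD5L does in fibrotic kidney injury, and its text gives no aim specific to podocytes.

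The total count per kidney ran from 17917491 to 23847090. Cd5l had 0 counts in every CD5L KO kidney, a level that allows up to 3 counts in a kidney, against 5 to 13 counts in WT kidneys given PBS and 3 to 15 in WT kidneys given rCD5L. A pair of kidneys stood apart, both of CD5L KO mice given rCD5L. In replicate 4 the summed level of 6 proximal tubule markers was 12465 CPM (read counts relative to library sizes scaled by TMM), while no other of the 19 kidneys passed 2038. In replicate 3 the summed level of 6 myofibroblast markers was 4939 CPM, against a median of 2810 in its group and 1191 in replicate 4. That sum was high for its group only, since WT kidneys reached 5280 CPM under PBS and 5215 CPM under rCD5L. The TMM factors of the pair were 0.874 for replicate 3 and 0.682 for replicate 4, and those of the other kidneys ran from 0.968 to 1.07. Comparisons that use this group were also run without both kidneys.

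All 9 genes were detected in each of the 19 kidneys, with 108 counts or more. In whole-kidney RNA, fewer podocytes, less RNA per podocyte and RNA of the same genes from other cells cannot be told apart. This holds for the other podocyte lists below as well.

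The gene models follow GRCm38. Nphs1 (ENSMUSG00000006649) spans chr7:30458315-30487223 on the plus strand, Kirrel (ENSMUSG00000041734) chr3:87078593-87174747 on the minus strand and Plce1 (ENSMUSG00000024998) chr19:38481109-38785030 on the plus strand. Podxl (ENSMUSG00000025608) spans chr6:31519488-31563981 on the minus strand, Ptpro (ENSMUSG00000030223) chr6:137252319-137463233 on the plus strand and Clic5 (ENSMUSG00000023959) chr17:44188584-44280172 on the plus strand. Wt1 (ENSMUSG00000016458) spans chr2:105126529-105173616 on the plus strand and Cdkn1c (ENSMUSG00000037664) chr7:143458339-143461050 on the minus strand. Synpo is listed as ENSMUSG00000043079. The strand setting of the counting is not given in the sources used here, so reads of Nphs1 and of Rps12-ps4, a pseudogene that overlaps it on the other strand and had 6.95% of its mean count, may be mixed. Other genes that overlap Ptpro, Cdkn1c, Plce1 or Kirrel had at most 0.167% of the member's mean count.

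RefSeq promoter sequence was at hand for 5 of the 9 genes. The 250 bases before the RefSeq start are printed for 3 of them. Nphs1 and Ptpro are shown because their levels went together across the 19 kidneys (Pearson r of log2 CPM 0.90), and Clic5 because its level did not follow theirs (r with Nphs1 0.11).
Nphs1, chr7:30459808-30460057, plus strand, GRCm38.p6: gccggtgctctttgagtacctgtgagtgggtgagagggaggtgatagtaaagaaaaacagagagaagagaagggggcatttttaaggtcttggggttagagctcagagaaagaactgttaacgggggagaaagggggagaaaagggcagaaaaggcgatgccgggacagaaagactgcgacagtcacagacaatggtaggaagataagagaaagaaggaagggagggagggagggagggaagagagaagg
Ptpro, chr6:137252049-137252298, plus strand, GRCm38.p6: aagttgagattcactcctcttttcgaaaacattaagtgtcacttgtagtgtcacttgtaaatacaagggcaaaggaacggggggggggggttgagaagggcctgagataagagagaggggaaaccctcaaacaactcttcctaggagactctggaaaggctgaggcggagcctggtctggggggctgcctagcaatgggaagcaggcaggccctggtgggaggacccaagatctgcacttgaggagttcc
Clic5, chr17:44188322-44188571, plus strand, GRCm38.p6: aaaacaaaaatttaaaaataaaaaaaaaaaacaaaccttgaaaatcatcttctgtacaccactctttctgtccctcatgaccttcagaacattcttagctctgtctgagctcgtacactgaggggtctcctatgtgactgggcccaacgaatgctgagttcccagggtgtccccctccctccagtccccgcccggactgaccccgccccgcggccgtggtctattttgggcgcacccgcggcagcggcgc

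The stretch before Nphs1 lies inside the gene model of the count table, since the RefSeq start is downstream of the start used there. It was 77.2% purine on the printed strand, against 60.8% for Ptpro and 45.2% for Clic5. GC content was 50.8%, 53.6% and 52.8% in that order, close to the median of 52.4% over 32851 RefSeq promoters. The motifs searched on both strands were a long WT1 site, GCGGGGGCG (WT1 and EGR factors), TAATTA (LIM homeodomain factors such as LMX1B) and CAGCTG (bHLH factors such as TCF21). These motifs were in none of the 5 promoters, so the printed stretches carry no capitals, and they are held by 0.0517%, 2.57%, 4.84% and 13.0% of all promoters in the order named. The GC content of the stretches not printed was 68.8% for Kirrel and 38.8% for Plce1. Their purine content was 76.8% and 54%, so the high purine share before Nphs1 was not particular to it.

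Podxl, which encodes podocalyxin, the sialic-acid-rich mucin of the podocyte surface, was the most abundant of the 9 per length, at 45.0 ± 6.23 FPKM, the authors' unit scaled by gene length and depth (SD, n = 19 kidneys). Cdkn1c (the cell cycle inhibitor p57, which marks quiescent podocytes) followed at 15.5 FPKM, Synpo (synaptopodin, an actin-binding protein of foot processes) at 14.1, Clic5 (an ezrin-associated protein of the chloride intracellular channel family) at 9.00 and Kirrel (Neph1, a binding partner of nephrin) at 6.86. Ptpro (GLEPP1, a receptor tyrosine phosphatase of the foot process) stood at 4.87 FPKM, Nphs1 (nephrin, the backbone of the slit diaphragm) at 4.74, Wt1 (a zinc finger transcription factor kept on in mature podocytes) at 2.46 and Plce1 (phospholipase C epsilon, a gene of inherited nephrotic syndrome) at 1.18.

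The order of neighbouring FPKM levels was checked in each kidney. Podxl was above Cdkn1c, Kirrel above Ptpro, Nphs1 above Wt1 and Wt1 above Plce1 in 19 of 19 kidneys. Cdkn1c was above Synpo in 16, Synpo above Clic5 in 18 and Clic5 above Kirrel in 17. Ptpro was above Nphs1 in only 10 of 19, so those neighbours could not be ordered.

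**Figure D1:**
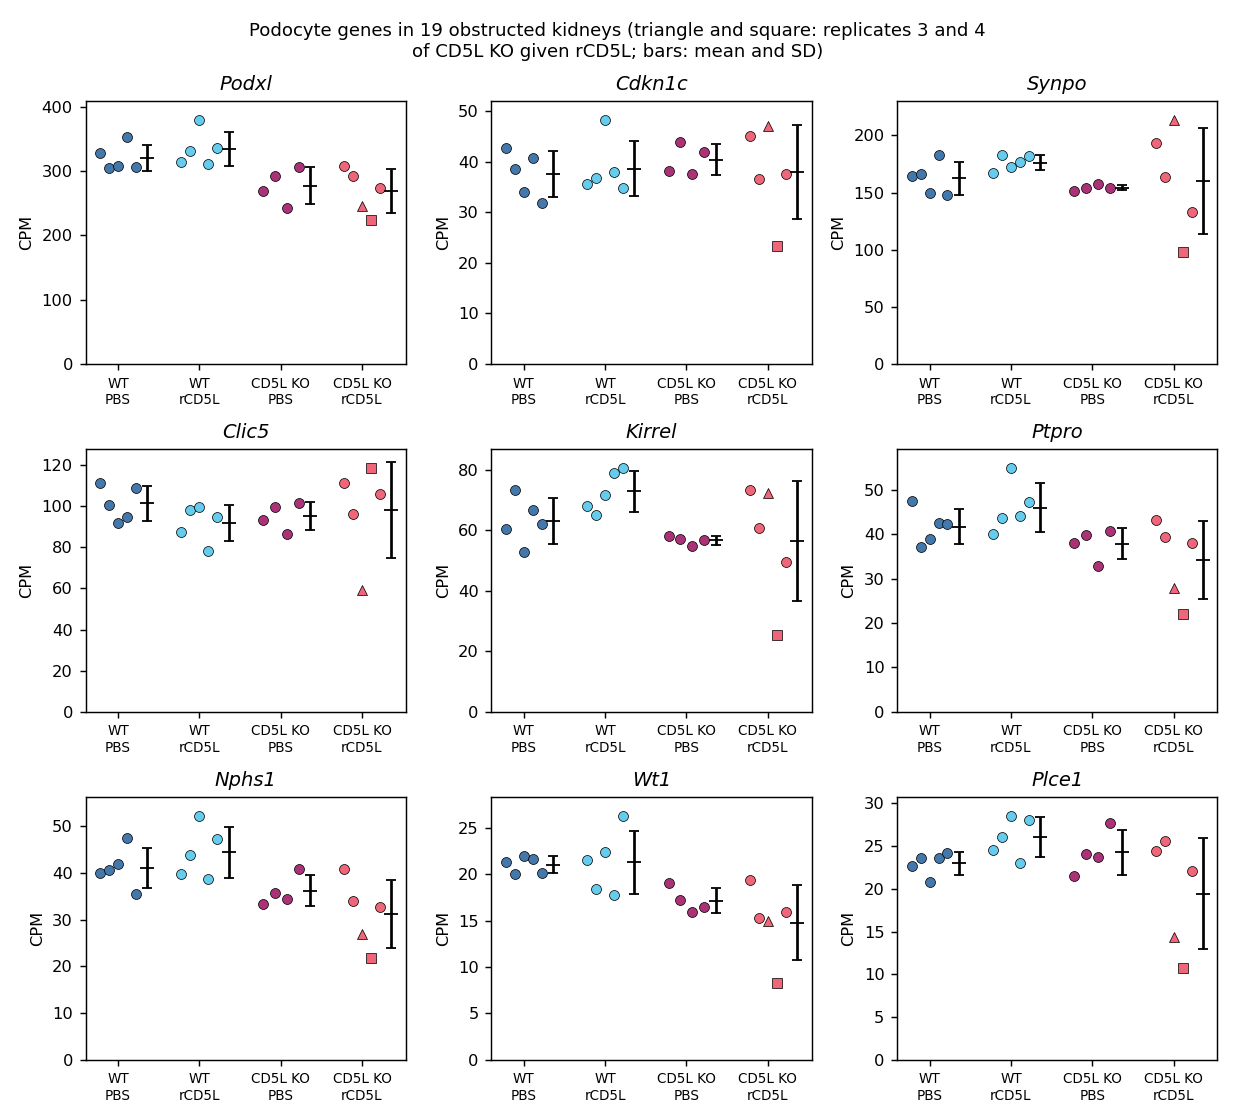
Level of each podocyte gene in CPM (TMM-scaled library sizes, axis from 0) in each of the 19 kidneys, by group, with the mean and SD as bars at the right of each group. For 8 genes the lowest kidney is replicate 4 (square) of the treated CD5L KO group, and for Clic5 that kidney is the highest, at 118 CPM.

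Under PBS, Wt1 was the 1 of the 9 genes whose values did not overlap between the genotypes. In WT kidneys given PBS its level was 21.3, 20.1, 21.995, 21.6 and 20.1 CPM in replicates 1 to 5, and in CD5L KO kidneys given PBS it was 18.998, 17.2, 15.9 and 16.4 CPM in replicates 1 to 4. Every CD5L KO kidney was below every WT kidney, as in 6.75% of all genes, and both groups were narrow, with SDs of 0.893 and 1.35 CPM. Wt1 fell by 0.30 on the log2 scale in CD5L KO mice (SE 0.0743, 95% interval -0.46 to -0.14, edgeR adjusted p = 0.0245), the 1 member called of 9, a share near that of all genes, since 10.5% of the 17579 genes tested were called and 5.4% were called lower. Its rank by p was 1111, so many other genes differed more clearly.

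Podxl and Nphs1 had lower means in the same CD5L KO kidneys without passing the adjusted threshold in the main edgeR fit, while DESeq2 called Podxl (adjusted p = 0.0451). An edgeR fit with the replicate number as a block called both (adjusted p = 0.0362 for Podxl and 0.0298 for Nphs1), where 12.1% of all genes were called. Podxl was measured at 329, 304, 308, 353 and 307 CPM in WT and at 269, 292, 242 and 307 CPM in CD5L KO mice, so that 1 CD5L KO kidney, replicate 4, reached into the WT range (log2 fold change -0.21, SE 0.0756, edgeR adjusted p = 0.0919). Nphs1 stood at 40.0, 40.5, 41.9, 47.5 and 35.5 CPM in WT and at 33.4, 35.8, 34.5 and 40.9 CPM in CD5L KO mice, with overlap again through CD5L KO replicate 4 and WT replicate 5 (log2 fold change -0.19, SE 0.0861, edgeR adjusted p = 0.179). With Wt1 these made 3 of 9 genes lower at an unadjusted p under 0.05, where 14% of all genes were.

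The other 6 genes were closer together. Kirrel had a log2 fold change of -0.16, Ptpro of -0.14, Clic5 of -0.10 and Synpo of -0.08, while Cdkn1c and Plce1 lay on the other side of 0 at 0.10 and 0.07, and the edgeR adjusted p-values of these 6 ran from 0.228 to 0.637. In all, 7 of 9 lay below 0 (50.7% of all genes did), with a median of -0.14 against -0.0046 over all genes. That median was -0.09 without CD5L KO replicate 3 and also without WT replicate 1, and -0.17 to -0.10 without any other 1 kidney.

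The Wt1 call was narrow. It held with DESeq2 (adjusted p = 0.00675), with RLE factors, a minimum of 10 counts in every kidney, the replicate block and both limma fits (0.0234 to 0.0383), and in 5 of 9 fits with 1 kidney left out. It was lost when low genes were not filtered (edgeR adjusted p = 0.0512), when all 19 kidneys entered 1 fit (0.542), with an offset for gene length (0.0588), with log2 fold changes of -0.30, -0.29 and -0.26 in that order, and without any 1 of CD5L KO replicates 2, 3 and 4 and WT replicate 4 (0.0557 to 0.0693). Fold changes in this comparison fell with gene length over all genes (Spearman rho -0.28 over genes, which are no replicates of each other). The members are long, with a median of 6723 bases against 3808, and with the length offset their median log2 fold change was -0.09; the part of length in the result was not tested further.

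Under rCD5L the kidneys of the CD5L KO group lay far apart from each other. Nphs1 was measured at 39.9, 43.8, 52.2, 38.8 and 47.4 CPM in WT and at 40.8, 33.9, 26.9, 21.7 and 32.8 CPM in CD5L KO mice given rCD5L. Only CD5L KO replicate 1 reached the WT range. Its log2 fold change was -0.53 (SE 0.164, 95% interval -0.89 to -0.17, edgeR adjusted p = 0.259).

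Wt1 showed a like difference with wider spread. WT kidneys given rCD5L had 21.6, 18.4, 22.4, 17.8 and 26.3 CPM, and CD5L KO kidneys given rCD5L had 19.4, 15.3, 15.0, 8.28 and 15.97 CPM. CD5L KO replicate 1 again lay within the WT range, and the log2 fold change was -0.55 (SE 0.201, edgeR adjusted p = 0.259).

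Podxl was the 1 gene of 9 with no overlap here. WT kidneys given rCD5L had 314, 332, 379, 311 and 336 CPM and CD5L KO kidneys given rCD5L had 308, 293, 247, 225 and 274 CPM, so the gap between the groups was small at its narrowest. Its log2 fold change was -0.33 (SE 0.122, edgeR adjusted p = 0.259), and 2.9% of all genes were lower without overlap.

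Ptpro had a log2 fold change of -0.45 (SE 0.179, edgeR adjusted p = 0.259), Plce1 of -0.44, Kirrel of -0.39, Synpo of -0.16 and Cdkn1c of -0.05, while Clic5 was at 0.08. None of the 9 passed the adjusted threshold in edgeR and none in DESeq2, with 0% of 17360 genes called by edgeR. At an unadjusted p under 0.05, 4 of 9 were lower (Nphs1, Podxl, Wt1 and Ptpro), against 6.8% of all genes. In all, 8 of 9 lay below 0, where 51.1% of all genes did, and the median of the 9 was -0.39 against -0.01. In the same comparison 6 of 6 proximal tubule markers were above 0 (median 1.45, 4 of them at an unadjusted p under 0.05) and 6 of 6 myofibroblast markers below 0 (median -0.48), none of them called by edgeR. Without replicates 3 and 4 of the treated CD5L KO group 4 of 6 proximal tubule markers were above 0 with a median of 0.11, so the tubular value rested on those kidneys, and the myofibroblast median was -0.44. Their part in the result was not tested.

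Without replicates 3 and 4 of the treated CD5L KO group, a choice made after seeing the data, the median was -0.21 and again 0 of the 9 were called, with adjusted p-values of 0.0986 for Nphs1, 0.120 for Podxl and 0.142 for Wt1 in edgeR. Of 18012 genes tested, 3.58% were then called. With all 19 kidneys in 1 edgeR fit Nphs1 and Wt1 were called (adjusted p = 0.0407 and 0.0491), where 7% of 18454 genes were. The length offset left Nphs1 at -0.43 and Wt1 at -0.46.

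**Figure D2:**
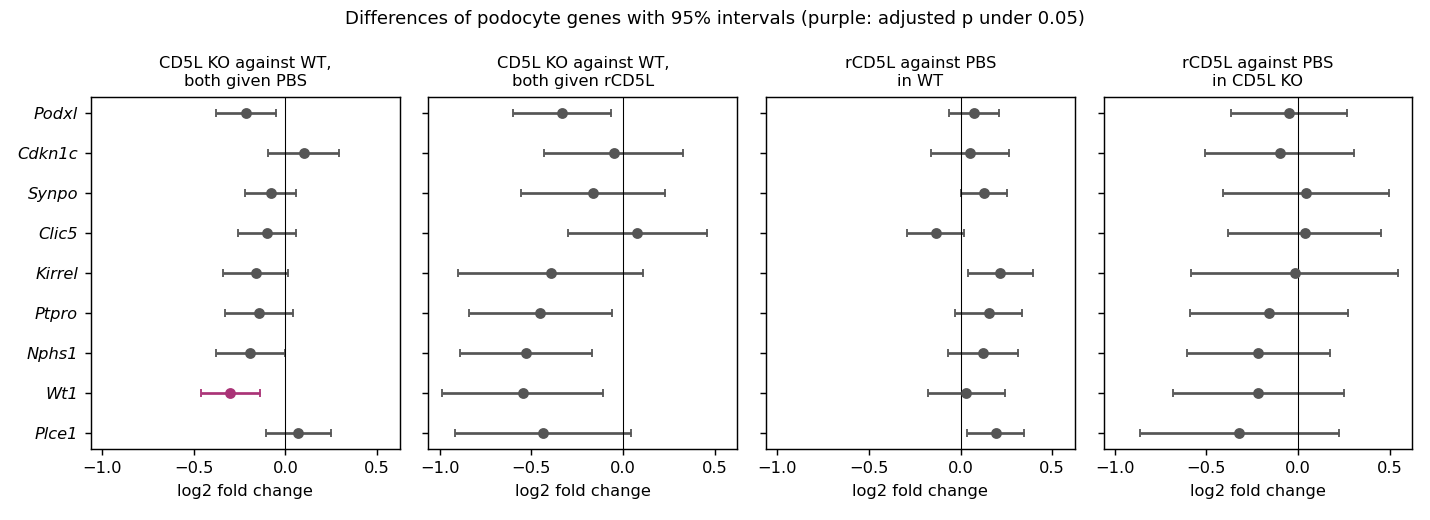
Log2 fold change of each podocyte gene with its 95% interval from edgeR in 4 comparisons, with purple for an adjusted p under 0.05. The 1 purple point is Wt1 in CD5L KO against WT mice given PBS, and the intervals are widest where CD5L KO mice given rCD5L enter.

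In WT mice, differences between rCD5L and PBS were small for all 9 genes. Kirrel was measured at 60.5, 73.3, 52.7, 66.8 and 62.2 CPM under PBS and at 67.9, 65.0, 71.8, 79.0 and 80.5 CPM under rCD5L, with overlap (log2 fold change 0.22, SE 0.0836, edgeR adjusted p = 0.223). Plce1 stood at 22.7, 23.6, 20.8, 23.6 and 24.2 CPM under PBS and at 24.5, 26.1, 28.5, 23.0 and 28.0 CPM under rCD5L, where 4 of 5 treated kidneys were above all 5 controls (log2 fold change 0.19, SE 0.0733, edgeR adjusted p = 0.223). Synpo ran from 148 to 183 CPM under PBS and from 167 to 182 CPM under rCD5L (log2 fold change 0.13, SE 0.0587, edgeR adjusted p = 0.307).

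These were the 3 of 9 genes higher at an unadjusted p under 0.05, against 8.31% of all genes. None of the 9 passed the adjusted threshold in edgeR, nor in DESeq2, and 0% of 17455 genes did in edgeR. Clic5 was the 1 gene below 0 (48.7% of all genes were), at -0.13 (edgeR adjusted p = 0.384), and the other 5 lay between 0.03 for Wt1 and 0.15 for Ptpro. The median was 0.12 against 0.0046 over all genes, 0.08 with the length offset, 0.06 without treated replicate 3 and 0.07 without PBS replicate 5. In this comparison fold changes rose with gene length over all genes (Spearman rho 0.24 over genes).

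In CD5L KO mice, no podocyte gene passed the test between rCD5L and PBS. None of the 9 was called by edgeR or DESeq2, 0 of 9 had an unadjusted p under 0.05, and 2.87% of 17467 genes did, with 0% called by edgeR. Log2 fold changes ran from -0.32 for Plce1 (95% interval -0.86 to 0.22) to 0.04 for Synpo (-0.41 to 0.49), with a median of -0.10 against 0.02 over all genes and edgeR adjusted p-values of 0.897 to 0.995. For Wt1 the 95% interval was -0.68 to 0.25 and for Nphs1 -0.61 to 0.17. With 1 kidney left out the median was -0.03 without treated replicate 4, -0.17 without treated replicate 1 and -0.06 without PBS replicate 2. Without replicates 3 and 4 the median was 0.08 and the signs of Podxl, Ptpro and Kirrel turned, so the sign of the median and of these 3 genes rested on those kidneys.

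The difference between the responses of the genotypes to rCD5L was tested as an interaction. No podocyte gene passed in edgeR or DESeq2, and 0 of 9 had an unadjusted p under 0.05, against 6.25% of 18454 genes, with 0% called. The farthest from 0 was Plce1 at -0.49 (SE 0.248, edgeR adjusted p = 0.731). In all, 8 of 9 lay below 0 (47% of all genes did), and Clic5 at 0.19 was the exception. With replicates 3 and 4 of the treated CD5L KO group left out, again 0 of the 9 were called by edgeR, 1 of 9 (Clic5) had an unadjusted p under 0.05, against 4.96% of 18724 genes, and 7 of 9 lay below 0 (49.6% of all genes did). Plce1 was then at -0.19 (SE 0.122, edgeR adjusted p = 0.965) and Clic5 at 0.28 (SE 0.113, the same adjusted p), so the value of Plce1 rested in large part on that pair of kidneys. These comparisons share groups of kidneys, so their values are not independent of each other.

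Replicates 3 and 4 of the treated CD5L KO group differed from their 3 group mates in several podocyte genes, with Plce1 and Ptpro low in both. Replicate 4 was the lowest of all 19 kidneys for 8 of the 9 genes. Relative to the mean of replicates 1, 2 and 5 its CPM was 0.415 times for Kirrel, 0.446 for Plce1, 0.490 for Wt1, 0.548 for Ptpro and 0.605 for Nphs1. Podxl was less far down at 0.769 times, and 7 of 9 genes were at 0.75 times or less, where 32.6% of all genes were.

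Clic5 in replicate 4 was at 118 CPM, the highest of the 19, or 1.13 times its group mates, but 0.753 times when CPM were taken on total counts without TMM. Its level was 111, 96.4 and 106 CPM in replicates 1, 2 and 5. Against the same group mates, this kidney held 9.83 times the level of Slc34a1 and 7.93 times that of Lrp2, both proximal tubule genes, but 0.367 times that of Col1a1 and 0.595 times that of Pdgfrb. Its macrophage markers summed to 533 CPM, against a group median of 1902.5. Its urothelial markers summed to 97.0 CPM, within the range of WT kidneys given PBS (21.3 to 159). The part of these marker levels in the low podocyte genes was not tested.

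Replicate 3 was uneven across the 9 genes. Clic5 was lowest of the 19 there, at 59.3 CPM or 0.567 times its group mates, and Plce1 was at 0.598 and Ptpro at 0.695 times. Synpo was instead the highest of the 19 at 213 CPM, 1.31 times its group mates, or 1.11 times on total counts. Kirrel and Cdkn1c were each at 1.18 times, and at 1.01 times on total counts. The share of all genes at 0.75 times or less was 27.0%, against 3 of the 9. In that kidney Col1a1 was at 2.37 and Pdgfrb at 1.59 times its group mates. The part of these in the result was not tested.

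**Figure D3:**
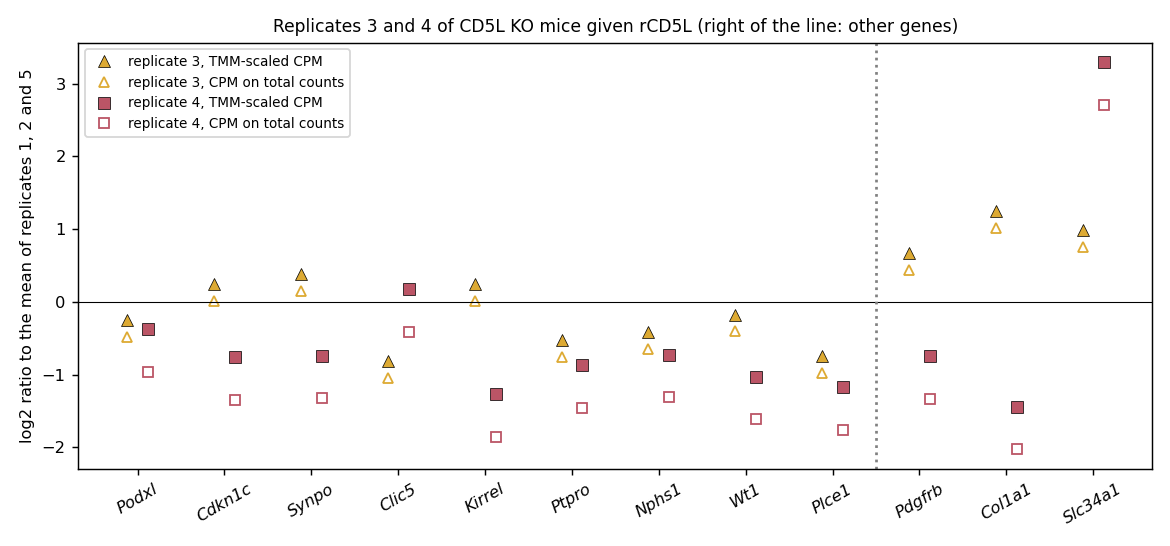
Log2 ratio of replicate 3 (triangles) and replicate 4 (squares) of CD5L KO mice given rCD5L to the mean of replicates 1, 2 and 5, for the 9 podocyte genes and 3 other genes, on TMM-scaled CPM (filled) and on total counts (open). Replicate 4 lies below 0 on both scales for 8 of the 9, and Clic5 changes sign with the scale.

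The summed CPM of the 9 genes, which Podxl leads, had a median of 804 in WT kidneys given PBS (range 760.1 to 873), 846 in WT given rCD5L (799 to 929), 743 in CD5L KO given PBS (685 to 787) and 723 in CD5L KO given rCD5L (552 to 859). The last median was 764 without replicates 3 and 4 (709 to 859, n = 3). The highest sum was in WT replicate 3 given rCD5L, which was the highest of the 19 for 5 of the genes. The lowest was in replicate 4 of the treated CD5L KO group. Replicate 1 of that same group had all 9 genes above their medians over the 19 kidneys.

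Across the 19 kidneys 22 of the 36 pairs of the 9 genes had a Pearson r of log2 CPM over 0.5, and 15 of 36 did without replicates 3 and 4 of the treated CD5L KO group. The highest were 0.93 for Nphs1 with Podxl, 0.91 for Podxl with Ptpro and 0.91 for Synpo with Kirrel, and these points share libraries and scaling. Over those 17 kidneys they were 0.88, 0.88 and 0.82. Other pairs rested on the 2 kidneys, with an r of 0.76 over 19 and 0.14 over 17 kidneys for Wt1 with Plce1, 0.68 and 0.13 for Cdkn1c with Kirrel, and 0.48 and -0.07 for Wt1 with Cdkn1c. Clic5 had an r of 0.03 with the mean z-score of the 9 over the 19 kidneys, 0.46 without replicate 4 of that group and 0.26 without both, where that score includes Clic5 itself. With single other genes its r over 17 kidneys ran from -0.18 for Kirrel to 0.29 for Cdkn1c.

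The genes outside the 9 whose log2 CPM was most like that mean z-score over the 19 kidneys were Flrt2 (r = 0.95), 1700025G04Rik, Myof, Slc36a4, Apaf1, Abca1, Map1b, Ddr2, Slc7a2 and Trim16 (r = 0.92), none of them on the podocyte lists used here. Lrch1 and Lmx1b were the 2 genes of the study's podocyte marker list among the top 50, or 4% against 0.314% of 14317 genes. Without replicate 4 of the treated CD5L KO group the top gene was Slc36a4 (r = 0.87) and Lmx1b stood at rank 8. Leaving out replicates 3 and 4, the top genes were Col6a2 (r = 0.90) and Col6a1, both matrix genes.

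Among the other podocyte lists the one with the largest share of calls was the glomerular basement membrane, the sheet of laminin, type IV collagen and heparan sulfate proteoglycan that podocytes and endothelium lay down together and that tubules share in part. In CD5L KO against WT mice given PBS, 6 of 11 genes for the membrane and its receptors fell, where 5.4% of all genes were called lower, and all 11 lay below 0, with a median of -0.28 against -0.0046. Lamc1 (laminin gamma chain) went from 167 to 214 CPM in WT to 116 to 140 CPM in CD5L KO kidneys, without overlap (log2 fold change -0.53, SE 0.0830, edgeR adjusted p = 0.0054). Hspg2 (perlecan) went from 249 to 327 CPM to 193 to 213 CPM (log2 fold change -0.50, SE 0.0773, edgeR adjusted p = 0.0053).

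Col4a3, a chain of the collagen network particular to mature glomeruli and some tubules, fell from a range of 122 to 159 CPM to one of 100.4 to 110 CPM (log2 fold change -0.41, SE 0.0703, edgeR adjusted p = 0.0066). Lamb2, Npnt (nephronectin) and Lama5 fell by 0.43, 0.37 and 0.28 on the log2 scale. Agrn (agrin) and Itgb1 (integrin beta 1), which are abundant but did not pass, were at -0.22 and -0.02. With the gene length offset 5 of 11 were called lower, all but Lama5 of the 6, against 3.54% of all genes.

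Under rCD5L the same 11 genes again lay below 0 in CD5L KO against WT mice, with a median of -0.43 and none called by edgeR, where 4 had an unadjusted p under 0.05 (51.1% of all genes lay below 0 and 6.8% were lower at that p). Without replicates 3 and 4 of the treated CD5L KO group, 8 of 11 were called lower (Hspg2, Lama5, Npnt, Lamb2, Lamc1, Col4a3, Col4a4 and Col4a5), where 1.95% of 18012 genes were called lower. Col4a3 was then at -0.45 (SE 0.0634, edgeR adjusted p = 0.0100). In the same fit markers of other cells were called too, with Col3a1 at -0.76, Ncam1 at -0.72, Itga8 at -0.68, Slc12a1 at -0.54, Kdr at -0.32 and Miox at 0.59, and their part in the result was not tested. Within either genotype rCD5L against PBS called none of the 11 in edgeR, and at an unadjusted p under 0.05 the count was 2 in WT and 0 in CD5L KO mice, where 16.02% and 2.87% of all genes passed.

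Of the slit diaphragm and junction partners, 2 of 11 tested fell in CD5L KO mice given PBS, where 5.4% of all genes were called lower. Fat1, a giant cadherin of the slit diaphragm that tubular cells also make, was at -0.42 (SE 0.0682, edgeR adjusted p = 0.0059), and Kirrel3, a scarce relative of Kirrel, went from 6.42 to 8.62 CPM in WT to 3.52 to 5.05 CPM in CD5L KO kidneys (log2 fold change -0.74, SE 0.147, edgeR adjusted p = 0.0098). Of the most abundant, Tjp1 (ZO-1) was at -0.19 (edgeR adjusted p = 0.0533), Efnb1 at 0.10 (0.191) and Cd2ap, an adaptor that binds nephrin, at 0.08 (0.402). With the length offset Fat1 and Kirrel3 were called lower as before and Cd2ap was called higher at 0.20, where 7.42% of all genes were called in either direction. The median of the list turned from -0.08 to 0.03.

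Of 14 cytoskeletal genes, 13 lay below 0 (50.7% of all genes did) and 2 fell, against 5.4% of all genes: Actn4 (alpha-actinin 4, mutated in familial glomerulosclerosis) by 0.31 and Myo1e (a motor protein of the foot process) by 0.45 on the log2 scale (edgeR adjusted p = 0.0087 and 0.0050). Ezr (ezrin) and Arhgdia, the most abundant of them, were at -0.10 and -0.17. Of 7 transcription factors none was called by edgeR, 1 was lower at an unadjusted p under 0.05 (14% of all genes were), 4 lay below 0 and 3 above, and their median was -0.05. The most abundant were Tcf21 at -0.27, Zbtb7c at 0.16 and Foxc2 at 0.0015.

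Of 14 secreted and surface proteins, 3 fell, against 5.4% of all genes, 10 lay below 0 and 4 above (Angpt1 at 0.17, Dpp4 at 0.06, Sema3e and Ildr2 at 0.03). Mertk, a receptor for apoptotic cells that macrophages also carry, was at -0.39, Robo2 (a guidance receptor that binds the nephrin complex) at -0.33 and Pla2r1 (the autoantigen of membranous nephropathy) at -0.42, with edgeR adjusted p-values of 0.0058, 0.0425 and 0.0319. Bcam, Plat and Enpep, the most abundant, were at -0.07, -0.09 and -0.02. With the length offset Mertk alone of the 14 was called, where 3.54% of all genes were called lower, 7 lay below 0 and the median was -0.02.

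The podocyte marker list that the study used to annotate its single cells gave 46 genes outside the 9, some of them also on the lists above. Of these 46, 7 fell in CD5L KO mice given PBS (Nsf, Myo1e, Mgat5, Mertk, Robo2, Plekhg1 and Pag1), against 5.4% of all genes. Myo1e, Mertk and Robo2 were already counted above. In all, 32 lay below 0 (50.7% of all genes did), and the median was -0.08. Lpl, among the most abundant, was at -0.15. With the length offset 4 were called, where 3.54% of all genes were called lower, and 23 lay below 0. In rCD5L against PBS in either genotype and in the interaction, edgeR called none of the genes of these 6 podocyte lists. At an unadjusted p under 0.05 the count was 1 of 86 tested in CD5L KO mice (1.16%, against 2.87% of all genes), 18 of 86 in WT mice (20.9%, against 16.02%) and 6 of 87 in the interaction (6.90%, against 6.25%). In CD5L KO against WT mice given rCD5L it also called none, with 23 of 87 at an unadjusted p under 0.05 (26.4%, against 17.8%). DESeq2 was not read for these lists. Without replicates 3 and 4 in that comparison, edgeR called 3 of 14 cytoskeletal genes (Myo1e, Inf2 and Srgap1), 2 of 12 junction genes (Tjp1 and Fat1) and 1 of 14 surface genes (Thsd7a). No transcription factor was called. Of the study's 46 genes it called 6, of which Mgat5, Plekhg1 and Astn2 were on that list alone. All were lower, beside the 8 basement membrane genes, where 1.95% of 18012 genes were called lower.

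**Figure D4:**
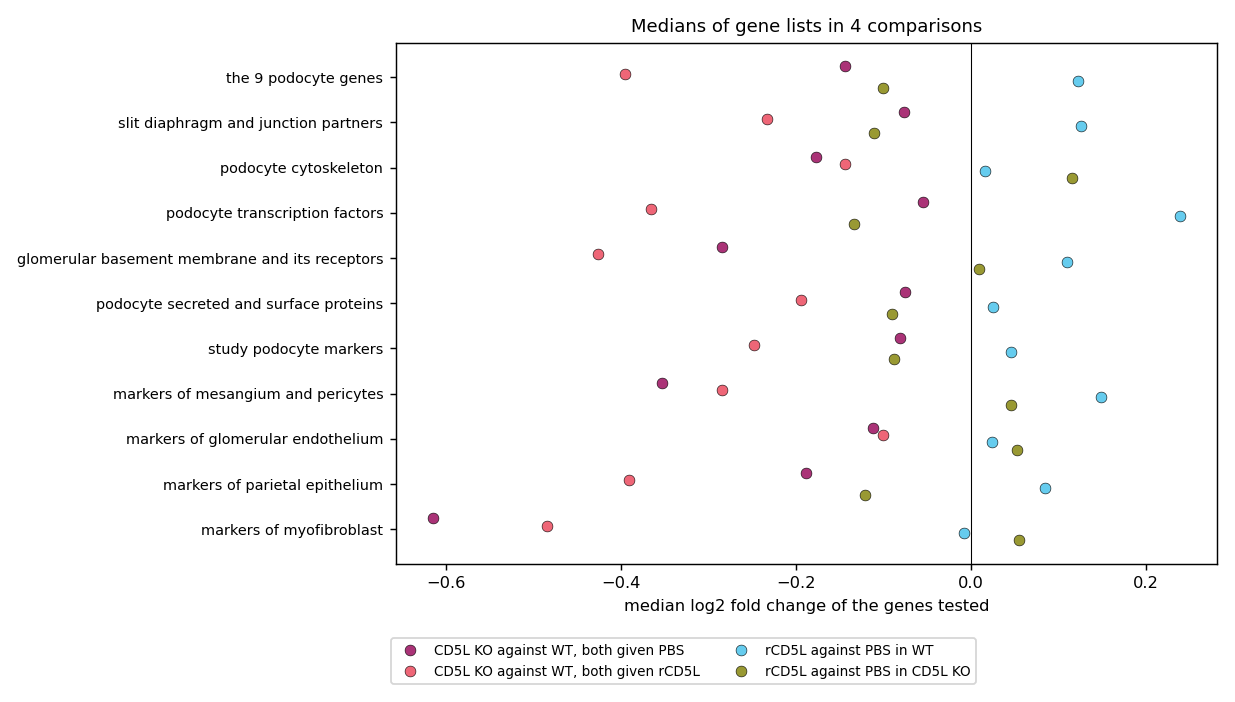
Median log2 fold change over the tested genes of the 9 podocyte genes, 6 other podocyte lists and 4 lists of neighbouring cell types, in 4 comparisons (colours). For CD5L KO against WT mice the medians lie below 0 for all 11 lists, though the gene length offset puts that of the slit diaphragm list under PBS at 0.03, and under PBS the myofibroblast list lies farthest down at -0.61.

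Markers of cells other than podocytes moved in the same comparison. In CD5L KO against WT mice given PBS, 4 of 6 myofibroblast markers fell, against 5.4% of all genes (Col3a1 by 0.86, Acta2 by 0.74, Fn1 by 0.62 and Col1a1 by 0.61 on the log2 scale), and their summed level was 2240 to 3061 CPM in CD5L KO against 3290 to 5280 CPM in WT kidneys. Of 6 markers of mesangium and pericytes 3 fell, against the same share (Itga8 by 0.71, Pdgfrb by 0.42 and Cspg4 by 0.29). Ren1, the renin gene, is the most abundant of them and was at -1.55 (SE 0.486, edgeR adjusted p = 0.0624), but at -0.90 without WT replicate 2, where it reached 1060 CPM, and the ranges overlapped. It was called without WT replicate 3 or without WT replicate 5 (edgeR adjusted p = 0.0314 and 0.0397). Serpine2 was at -0.10, and Gata3 lay above 0 at 0.36 (edgeR adjusted p = 0.0644). Their part in the lower Wt1 and basement membrane genes was not tested, and none of these lists had a gene at 0 in all kidneys.

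Of the parietal epithelium, the cells that line Bowman's capsule, Akap12 and Ncam1 fell by 0.64 and 0.39 while Cldn1 and Pax2 were at 0.05 and 0.02. Of 6 glomerular endothelial markers tested all lay below 0 (50.7% of all genes did) and 1, Pecam1, fell by 0.38, with Emcn at -0.04 and Kdr at -0.31 (edgeR adjusted p = 0.0817). Csf1r of 5 macrophage markers fell by 0.47, with Lyz2 at 0.27 and C1qa at -0.10. For each of these lists the share of all genes called lower was 5.4%. With the length offset Csf1r, Ncam1 and Cspg4 were no longer called and Cd68 was, at -0.39.

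The 4 urothelial markers went the other way. All lay above 0 (50.7% of all genes lay below it), with a median of 0.83, and none was called by edgeR. At an unadjusted p under 0.05 the count was 2 of 4, where 26.6% of all genes passed in either direction. Krt15 was at 1.11 (edgeR adjusted p = 0.0793), Krt5 at 0.85 and Upk1b at 0.72, and the summed level was 198 to 315 CPM in CD5L KO against 21.3 to 159 CPM in WT kidneys, without overlap. The part of this in the result was not tested. No proximal tubule or T cell marker was called by edgeR and none had an unadjusted p under 0.05, with Slc34a1 at -0.09, Slc5a2 at -0.02, Miox at 0.0073, Cd4 at -0.12, Cd8a at -0.07 and Lck at 0.14. Of 6 loop and collecting duct markers Atp6v1g3 alone was called, higher by 0.33, where 10.5% of all genes were called in either direction. That call was lost with the length offset, and Umod, Slc12a1 and Aqp2, the most abundant, were at -0.09, -0.39 and 0.48. Aqp2 was at 211 CPM in CD5L KO replicate 3 and at 53.2 to 57.8 CPM in the other 3, and without that kidney it lay at -0.28.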

How the data were processed

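Whole-kidney RNA of 19 mice was measured by bulk RNA-seq, with 0 columns of the tables left without a sample. The authors cleaned paired reads of random-primed libraries with Trimmomatic, placed them on GRCm38 by HISAT2 and summarised them by gene through featureCounts (versions, strand setting and treatment of multiple matches are not given in the sources used here). Raw counts were deposited, beside FPKM values of the same genes, which the authors scaled by gene length and library size. FPKM served for levels between genes and in the limma alternative only.

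The counts of the 2 groups compared were fitted with edgeR 4.0.16 under R 4.3.3 (TMM factors, filterByExpr at a minimum count of 10, glmQLFTest), and all 4 groups for the interaction. Benjamini-Hochberg adjustment ran over all genes tested, and an adjusted p under 0.05 made a call. Replicate numbers in the labels name separate mice. CPM used TMM-scaled library sizes, and log2 CPM a prior count of 2. Intervals are 95%, and the limit of 3 counts for a count of 0 covers counting error only.

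The members and gene lists were chosen with earlier results of these data known. By rule the text names the 9 genes, from each list the called genes and the 3 highest by mean FPKM, the 10 genes most like the members' mean z-score (mean log2 CPM of at least 1), and Cd5l. Lrp2 and genes named only for an alternative or for fewer kidneys were chosen after their values were seen. Gata3, Angpt1, Dpp4, Sema3e and Ildr2 fall outside the rule too and were named because they lay above 0. Alternatives were DESeq2 1.42.0, RLE factors, other count filters, a joint fit of all samples, a block on the replicate number, a gene length offset (lowess span 0.3), limma 3.58.1 on log2(FPKM + 1) or log2(FPKM + 0.1), and leaving out kidneys. Fits were tested on simulated data. A few items of the lists and 1 motif are not reported here and were left out of their counts.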

Additional observations from a re-analysis of the deposited data

Results flagged for a closer look

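Of 40 sets of values (9 genes and their sum in 4 groups), 1 held a kidney whose gap to the others was large by Dixon's criterion. Cdkn1c in WT mice given rCD5L was at 48.2 CPM in replicate 3, and the next kidney of that group was at 37.9 CPM. The gap made up 0.763 of the group's range, where 0.710 is the critical value for 5 samples. Chance alone flags about 1 in 20 such sets. Without this kidney the log2 fold change of Cdkn1c for rCD5L against PBS in WT mice was -0.04 in place of 0.05.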

How the results depend on the processing

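In CD5L KO against WT mice given PBS, the number of the 9 genes called (1 with edgeR) was 0 with no filter on low counts, with all 19 samples in 1 fit and with the gene length offset, 2 with DESeq2 (Podxl and Wt1; 18.1% of all genes with an adjusted p), 3 with the replicate number as a block (Nphs1, Podxl and Wt1; 12.1%), and 0 to 1 when 1 kidney was left out. All genes called numbered 1850 (10.5%), 2622 with DESeq2, 2132 with the block and 12 with all 19 samples in 1 fit. In CD5L KO against WT mice given rCD5L it was 2 (Nphs1 and Wt1) with all 19 samples in 1 fit and 0 otherwise. The count was 0 in the other comparisons under every setting run. Whether the numbers pair the kidneys is not given by the labels. Same-numbered kidneys deviated together at a correlation over 0.1 in 2 of 4 pairs for CD5L KO against WT given PBS and 3 of 4 for rCD5L in CD5L KO mice. The count was 0 of 5 for rCD5L in WT mice and 0 of 5 for CD5L KO against WT given rCD5L. These values do not settle pairing, so the block is only a check.

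For rCD5L against PBS in CD5L KO mice the sign turned for Clic5 under the replicate block (-0.0421) and limma at a pseudocount of 0.1 (-0.00233), for Synpo under limma at 1 (-0.00593) and 0.1 (-0.0105), and for Podxl (0.0758), Ptpro (0.0867) and Kirrel (0.114) without replicates 3 and 4. The length offset turned Wt1 for rCD5L in WT mice (-0.00295) and Synpo for CD5L KO against WT given rCD5L (0.00158), and leaving out those replicates turned Cdkn1c there (0.0279). None of these was called, and the cause was not tested. With 1 kidney left out, log2 fold changes for rCD5L in CD5L KO mice ran from -0.103 to 0.0143 for Podxl, -0.0757 to 0.184 for Synpo, -0.182 to 0.0376 for Cdkn1c, -0.0329 to 0.176 for Clic5 and -0.131 to 0.173 for Kirrel. In WT mice they ran from -0.0432 to 0.0977 for Cdkn1c and -0.0569 to 0.0895 for Wt1, and for Cdkn1c in CD5L KO against WT given rCD5L from -0.127 to 0.0818. For Aqp2 in CD5L KO against WT given PBS they ran from -0.282 to 0.821. In the interaction the sign of Podxl turned without replicates 3 and 4 of the treated CD5L KO group (0.00847). Groups of 4 or 5 kidneys and the wide CD5L KO group given rCD5L limit what could be detected.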
